A study of Oryza sativa with 4 samples.

Results

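The short-arm ends of chromosomes 11 and 12 of rice carry copies of the same ancestral segment, and the H4K5ac peaks on these copies are described here for leaves under drought and under full watering. A peak was a member where its midpoint lay below 3 Mb on chromosome 11 or on chromosome 12, whatever its height or width. By this rule 517 of the 26147 peaks of the drought-stressed list and 573 of the 28883 peaks of the well-watered list were members. The chromosome 11 copy held 259 drought-stressed and 289 well-watered peaks, and the chromosome 12 copy held 258 drought-stressed and 284 well-watered peaks.

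Chromatin immunoprecipitation and sequencing was done with an antibody to H4K5ac on leaves of Hanyou73, a water-saving hybrid rice, at the grain filling stage. The drought-stressed group and the well-watered group had 2 libraries each, and differed in water supply alone as far as the labels say. All 4 libraries share cultivar, tissue, stage and antibody. The labels do not say whether the libraries of a group came from separate plants, and each group has 1 peak list that stands for both of its libraries.

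H4K5ac is acetylation of lysine 5 on histone H4, a mark laid down by histone acetyltransferases and found mostly at the starts of transcribed genes. The duplication at the ends of chromosomes 11 and 12 has long been regarded as the youngest large segmental duplication of the rice genome, and stretches of near-identical sequence on both copies have been put down to gene conversion between them. Both chromosomes are also known for clusters of disease resistance genes of the nucleotide-binding, leucine-rich repeat type. How sequencing reads that match both copies were placed is not given in the sources used here, and its part in the values below was not tested.

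Each value below describes 1 list and has no replicate error. Intervals are 95% intervals that cover counting error only and take neighbouring peaks as independent. The read depth behind the lists is unknown. The genome build is not given in the sources used here, so no gene was assigned to a peak, and positions are those of the lists. No p-value is given, because there is no spread between samples to set a difference against.

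The copies were alike in peak number and lay in a peak-rich part of their chromosomes. The chromosome 11 copy held 86.3 drought-stressed and 96.3 well-watered peaks per Mb, and the chromosome 12 copy held 86.0 drought-stressed and 94.7 well-watered peaks per Mb. Both copies together held 86.2 peaks per Mb in the drought-stressed list, against 49.2 per Mb in the rest of chromosomes 11 and 12. They held 95.5 per Mb in the well-watered list, against 54.2 per Mb in that rest.

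The comparison with the rest of both chromosomes includes their centromeres and long arms, and most of the difference in density was not there when the copies were set beside other short-arm ends. The first 3 Mb of the other 10 chromosomes held 80.7 drought-stressed and 87.6 well-watered peaks per Mb. Among the 12 short-arm ends, the chromosome 11 copy ranked 6th and the chromosome 12 copy 7th by peak number in both lists. The other 10 ends ranged between 142 and 338 drought-stressed peaks and between 156 and 366 well-watered peaks. In number, then, these ends were ordinary short-arm ends.

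**Figure D1:**
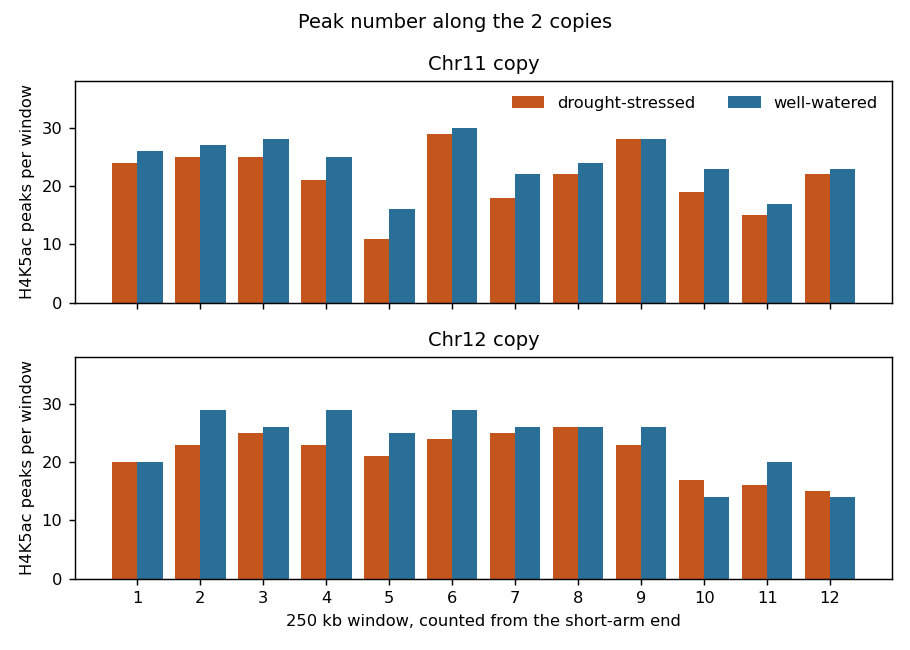
H4K5ac peaks in each 250 kb window of the chromosome 11 copy (top) and the chromosome 12 copy (bottom), counted from the short-arm end, in the drought-stressed list (orange, left bar) and the well-watered list (blue, right bar). Window 5 of chromosome 11 holds 11 and 16 peaks, and the last 3 windows of chromosome 12 hold between 14 and 20.

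Along their length the copies shared their totals more than their profile. In the drought-stressed list the chromosome 11 copy held 95 peaks in the first Mb, 80 in the second and 84 in the third, and the chromosome 12 copy held 91, 96 and 71. The well-watered counts were 106, 92 and 91 on the chromosome 11 copy, and 104, 106 and 74 on the chromosome 12 copy. The copies thus began alike, and the chromosome 12 copy had more peaks in the second Mb and fewer in the third.

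In windows of 250 kb the chromosome 11 copy was poorest in window 5, with 11 drought-stressed and 16 well-watered peaks, where the chromosome 12 copy had 21 and 25. The chromosome 12 copy had its lowest drought-stressed counts in its last 3 windows, and its lowest well-watered counts in windows 10 and 12. It held 17 drought-stressed and 14 well-watered peaks in window 10, 16 drought-stressed and 20 well-watered peaks in window 11, and 15 drought-stressed and 14 well-watered peaks in window 12. Windows 10 and 12 of chromosome 12 are the only ones of either copy in which the drought-stressed list held more peaks than the well-watered list.

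Peak counts in bins at the same distance from the end were not related at a fine scale. Over 30 bins of 100 kb, Pearson's r between the copies was -0.053 and Spearman's rho 0.0054 in the drought-stressed list, and r was 0.048 and rho -0.0053 in the well-watered list. Over 12 windows of 250 kb, r was 0.375 and rho 0.342 in the drought-stressed list, and r was 0.371 and rho 0.574 in the well-watered list. Among the other 65 pairs of short-arm ends, r over these windows was higher in 7 (drought-stressed) and 10 (well-watered). It ranged from -0.57 to 0.71 and from -0.59 to 0.82 in these lists. Bins at the same distance from the end take no account of the shifts between the copies described below. Neighbouring bins share the general trend of each arm, so these values are descriptions.

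Over the first peaks next to the short-arm ends, a stretch picked for its likeness, the copies were laid out alike. On chromosome 11 the first peak ran from 3646 to 4783 in the drought-stressed list and from 3517 to 4807 in the well-watered list. On chromosome 12 the first peak ran from 2152 to 3139 in the drought-stressed list and from 1911 to 3146 in the well-watered list. All 4 were broad, with widths of 1138 bp and 1291 bp on chromosome 11 and 988 bp and 1236 bp on chromosome 12, in that same order of lists.

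A long stretch without a peak came next on both. On chromosome 11 it measured 74381 bp in the drought-stressed and 74307 bp in the well-watered list. On chromosome 12 it measured 93545 bp in the drought-stressed and 71825 bp in the well-watered list. In the well-watered list these were the longest and the second longest distances between the first peak and the next among the 12 short-arm ends, and the other 10 ends ranged between 4503 and 54800 bp with a median of 13140 bp. In the drought-stressed list the chromosome 12 copy ranked 1st and the chromosome 11 copy 3rd, with the other 10 ends between 4596 and 87418 bp.

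The longer distance on chromosome 12 under drought came down to 1 peak. In the well-watered list a peak of 240 bp at 74972 to 75211, with a score of 122, ended the empty stretch of chromosome 12, and the drought-stressed list had no peak there. Its counterpart on chromosome 11, at 79165 to 79643 in the drought-stressed list and at 79115 to 79673 in the well-watered list, was 479 bp and 559 bp wide, with scores of 627 and 1560.

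From that second well-watered peak onward, 4 peaks stood at nearly the same distances on both copies. In the drought-stressed list their centres lay 21.6, 28.6, 31.1 and 44.8 kb further on along chromosome 11, and 21.7, 28.7, 31.1 and 44.7 kb further on along chromosome 12. The well-watered centres lay 21.6, 28.6, 31.1 and 44.7 kb further on along chromosome 11, and 21.7, 28.7, 31.1 and 44.7 kb further on along chromosome 12. The order and the distances were thus kept within 0.2 kb in both lists. The likeness ended there: the next well-watered peaks stood at 48.0, 55.5 and 56.4 kb on chromosome 11, and at 51.2 and 57.6 kb on chromosome 12.

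The widths of these 4 peaks followed the same order on both copies up to the third. They were 303, 605, 791 and 762 bp on chromosome 11 and 281, 553, 688 and 963 bp on chromosome 12 in the drought-stressed list. Under full watering they were 299, 629, 767 and 812 bp on chromosome 11 and 282, 593, 692 and 969 bp on chromosome 12. The first of them had a small neighbour of 176 bp on chromosome 12 in both lists, which chromosome 11 did not have in either. Scores within a list differed between the copies: the first of the 4 scored 348 on chromosome 11 and 1129 on chromosome 12 in the drought-stressed list, and 273 on chromosome 11 and 2066 on chromosome 12 in the well-watered list.

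**Figure D2:**
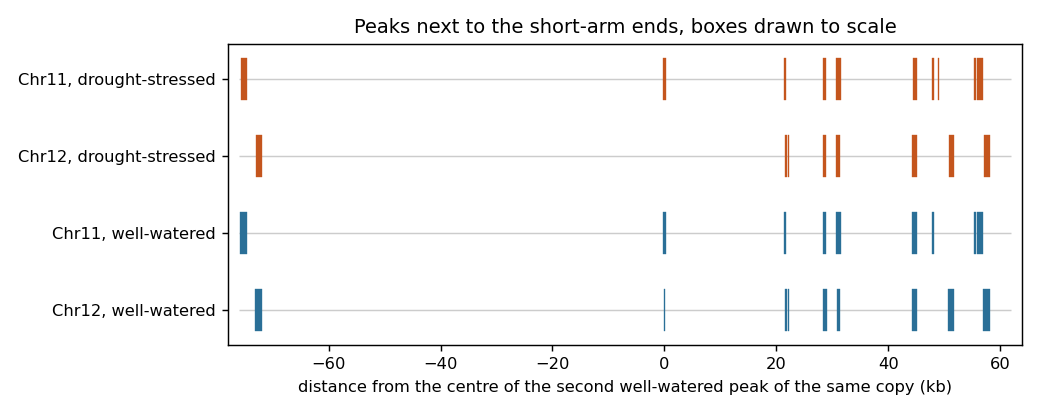
Peaks next to the short-arm ends of chromosomes 11 and 12 in the drought-stressed list (orange) and the well-watered list (blue), as boxes of their own width against the distance in kb from the centre of the second well-watered peak of the same copy. After a broad first peak and a long empty stretch, peaks stand near 21.6, 28.6, 31.1 and 44.7 kb on both copies in both lists.

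A stretch in the second Mb kept 6 neighbouring peaks with no other peak between them on either copy, in both lists. Its drought-stressed peaks ran from 1689947 to 1735247 on chromosome 11 and from 1646289 to 1691746 on chromosome 12, and its well-watered peaks from 1689899 to 1735212 on chromosome 11 and from 1646125 to 1691691 on chromosome 12. The 5 drought-stressed spacings between centres differed between the copies by 211, 23.5, 40.5, 389 and 15.5 bp. The well-watered spacings were 5700, 3145, 13549, 2718 and 19644 bp on chromosome 11, and 5490, 3073, 13601, 3099 and 19647 bp on chromosome 12, and differed by 210, 72, 52, 381 and 2.5 bp.

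The differences of a spacing were thus close to each other in both lists. All 6 peaks of chromosome 12 lay nearer to the end of their arm than those of chromosome 11, by 43.5 to 43.9 kb in the drought-stressed list and by 43.5 to 44.0 kb in the well-watered list. Their widths were less alike: the third peak measured 505 bp on chromosome 11 and 817 bp on chromosome 12 in the drought-stressed list, and 463 bp and 865 bp in the well-watered list. This stretch was picked for its likeness, and the same picking was not done for other pairs of chromosomes.

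**Figure D3:**
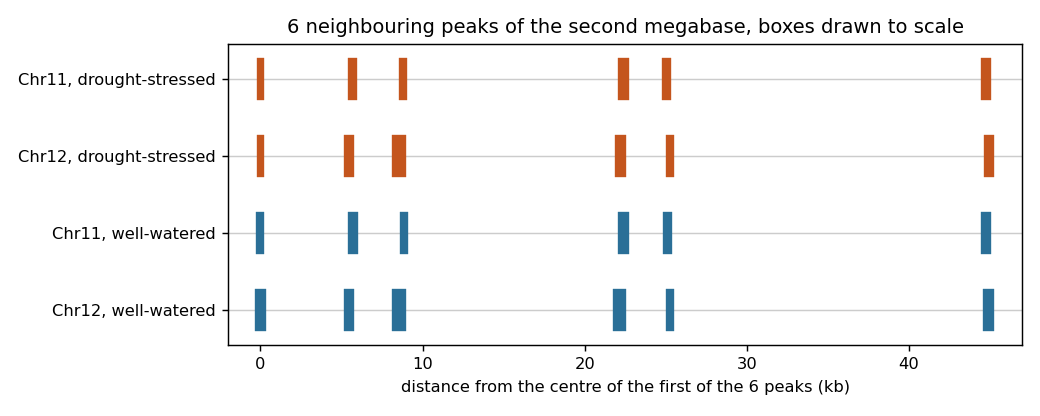
The 6 neighbouring peaks of the second Mb on chromosomes 11 and 12 in the drought-stressed list (orange) and the well-watered list (blue), as boxes of their own width against the distance in kb from the centre of the first of them. The 4 rows line up within 0.4 kb at each step of the spacing.

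A search over the whole copies gave a more sober account of order and spacing. Runs of at least 4 consecutive peaks with spacings equal within 100 bp on both copies numbered 0 in the drought-stressed and 0 in the well-watered list. The other 65 pairs of short-arm ends together had 6 such runs in the drought-stressed and 10 in the well-watered list. These came from 6 pairs in the drought-stressed and 9 in the well-watered list, and the median over the 65 pairs was 0 in both. Runs of 3 peaks numbered 9 in the drought-stressed list, of which 3 lay at positions within 100 kb of each other, and 17 in the well-watered list, of which 6 did. The other pairs had a median of 5 in the drought-stressed and 8 in the well-watered list, and 18 and 9 of these pairs had more than the copies. By number of runs, then, the copies were not set apart from unrelated ends.

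Of the 3-peak runs at like positions in the well-watered list, the first lay at 107681 to 124502 on chromosome 11 and at 103500 to 120304 on chromosome 12, inside the stretch next to the ends described above. A second lay at 227264 to 245640 on chromosome 11 and at 242681 to 261060 on chromosome 12. There the chromosome 12 peaks stood 15.4 to 15.5 kb further in. Its spacings were 6902 and 11098 bp on chromosome 11, and 6839 and 11092 bp on chromosome 12. Under drought the last of its chromosome 11 peaks, 188 bp wide, was not in the list, while its chromosome 12 partner of 219 bp had a drought-stressed peak of 174 bp.

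A further run, at 1603589 to 1615276 on chromosome 11 and at 1554985 to 1566546 on chromosome 12, was found in both lists. Its 3 peaks were 1191, 487 and 633 bp wide on chromosome 11 and 737, 744 and 561 bp on chromosome 12 in the drought-stressed list. Under full watering they were 1330, 639 and 642 bp wide on chromosome 11 and 1173, 793 and 718 bp on chromosome 12. The first of them thus measured far less on chromosome 12 than on chromosome 11 under drought, and nearly as much under full watering.

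The shift between the copies was not the same in all of these stretches. Along these stretches the chromosome 12 peaks lay 4.2 kb nearer to the end than those of chromosome 11 at 0.11 Mb, 15.4 kb further in at 0.23 Mb, 48.7 kb nearer at 1.60 Mb and 43.5 to 44.0 kb nearer at 1.7 Mb.

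A looser measure counted like intervals, which are neighbouring peaks on chromosome 11 and neighbouring peaks on chromosome 12 with spacings equal within 100 bp and with both widths within a ratio of 1.25. It was chosen after the search for runs had been seen, and among the width limits tried this one gave the strongest contrast in the well-watered list. Intervals at positions within 100 kb of each other were set beside all others.

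In the drought-stressed list 7 of 4563 comparisons at like positions were like intervals (0.153%), against 66 of 61743 elsewhere (0.107%), a ratio of 1.43. In the well-watered list 18 of 5556 comparisons at like positions were like intervals (0.324%), against 55 of 75948 elsewhere (0.0724%), a ratio of 4.47. The ratios of the other 65 pairs of ends lay between 0 and 3.01 in the well-watered list, so none was as high as that of the copies. A higher ratio than that of the copies was found in 14 of the 65 pairs in the drought-stressed list. With these limits the contrast at like positions was thus seen in 1 of the 2 lists. With any width the ratio was 1.37 in the drought-stressed and 1.34 in the well-watered list. In the same order of lists it was 2.26 and 2.38 with widths within 1.15, and 1.69 and 2.66 within 1.4. The difference between the lists thus depends on the limit on width.

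**Figure D4:**
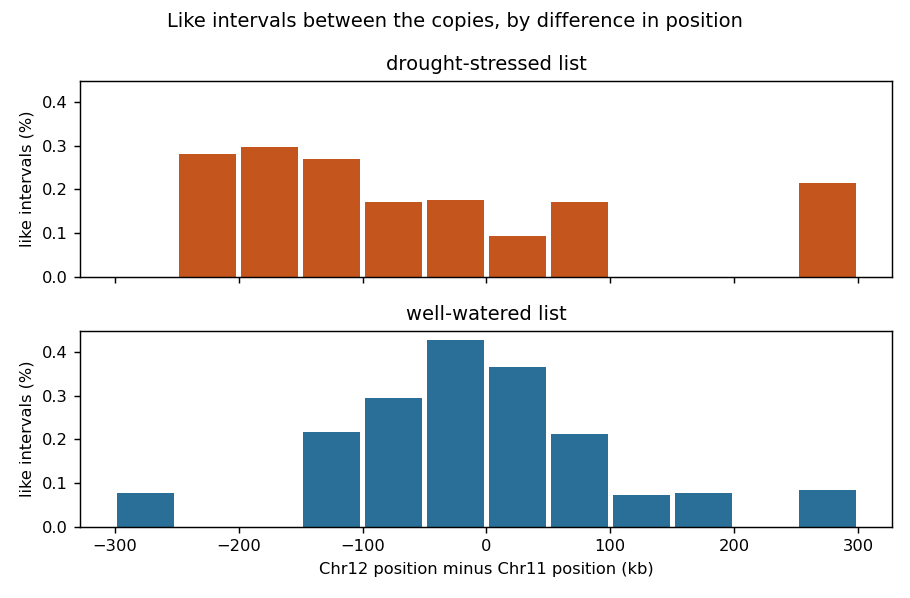
Share of compared intervals that were like intervals, in percent, against the position on chromosome 12 minus the position on chromosome 11, in steps of 50 kb, for the drought-stressed list (top) and the well-watered list (bottom). The share is highest between -200 and -150 kb in the drought-stressed list, at 0.298%, and in the well-watered list between -50 and 0 kb, at 0.426%.

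Of the 18 like intervals of the well-watered list, 8 lay in the first Mb of chromosome 11, 8 in the second and 2 in the third. In 13 of them all 4 peaks had a single drought-stressed counterpart, and 8 of these 13 kept spacings equal within 100 bp in the drought-stressed list. Spacings and widths both stayed within the limits in 4. Peaks within 20 kb beside the like intervals had a partner within 300 bp at the same shift in 0 of 31 cases in the drought-stressed list (interval 0 to 11%) and in 12 of 72 in the well-watered list (16.7%, 9.80 to 26.9%). Beside like intervals elsewhere on the copies, 16 of 260 (6.15%, 3.82 to 9.76%) had one in the drought-stressed list and 17 of 243 (7.0%, 4.41 to 10.9%) in the well-watered list. At like positions the other pairs of ends together had 55 of 910 (6.04%) in the drought-stressed and 69 of 1020 (6.76%) in the well-watered list. In the well-watered list 6 of the 62 pairs with such peaks had a higher share than the copies, up to 33.3%. Adjoining like intervals count a peak of each other here, so the share in the well-watered list partly restates the runs above.

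Peaks matched through the well-watered like intervals gave 33 matches between 31 peaks of each copy. These are matches of spacing and width and need not be true counterparts: 2 of them join peaks of the 6-peak stretch to other partners than the order of that stretch does. In 30 of the 33 both partners also had an overlap in the drought-stressed list. The chromosome 11 partner had one in 30 matches and the chromosome 12 partner in 32. Of all well-watered peaks, 85.5% had one on the chromosome 11 copy, 85.2% on the chromosome 12 copy and 84.9% over all sequences. Whether the matched peaks differ from these shares was not tested. A width change could be read on both copies for 27 matches. Both partners were narrower under drought in 14, the chromosome 11 partner alone in 5, the chromosome 12 partner alone in 7 and neither in 1. Over all pairs of the copies 77.8% were narrower on chromosome 11 and 81.8% on chromosome 12, beside 75.1% over all sequences. No likeness between partners in the direction of change is read from these counts. Among the matched peaks the median change was -42 bp on chromosome 11 and -49 bp on chromosome 12, beside -53 and -55 bp over all pairs of the copies. The size of the change on one copy was not related to that on the other, with r of -0.0024 and rho of -0.162 over the 27 matches.

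A matched peak of chromosome 11 was divided under drought, while its candidate partners on chromosome 12 were not. The well-watered peak at 1404930 to 1405891 on chromosome 11, 962 bp wide, lay over 2 drought-stressed peaks of 232 and 562 bp. It had like-interval partners at 1309900 to 1310762 and at 1317163 to 1318335 on chromosome 12. Both were single peaks in each list, the one 724 bp wide under drought and 863 bp under full watering, the other 1155 bp under drought and 1173 bp under full watering. Which of them, if either, is a true counterpart is not known, so no difference between the copies is read from this peak.

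Peaks of the copies were as wide as elsewhere. The median width was 581 bp (545 to 620 bp) in the drought-stressed and 625 bp (578 to 657 bp) in the well-watered list on chromosome 11. On chromosome 12 it was 558.5 bp (534 to 586 bp) in the drought-stressed and 602.5 bp (567 to 660 bp) in the well-watered list. The intervals of the copies overlapped in each list. The rest of both chromosomes had medians of 554 bp in the drought-stressed and 583 bp in the well-watered list, and the other 10 ends had 567 and 610 bp.

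The copies held fewer very narrow peaks than the rest of their chromosomes. Peaks of at most 200 bp, about the length of the shortest sheared fragments, made up 37 of the 517 drought-stressed peaks (7.16%) and 40 of the 573 well-watered peaks (6.98%) of the copies. In the rest of chromosomes 11 and 12 they made up 11.7% in the drought-stressed and 12.3% in the well-watered list. The other 10 short-arm ends, at 8.43% in the drought-stressed and 8.22% in the well-watered list, were closer to the copies. Over all sequences the shares were 9.10% and 9.84%.

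Peaks over 1 kb numbered 16 drought-stressed and 27 well-watered on chromosome 11, and 15 drought-stressed and 26 well-watered on chromosome 12. The widest peak of chromosome 11, at 1119752 to 1121297 in the drought-stressed list, measured 1546 bp there and 1558 bp in the well-watered list. On chromosome 12 the widest drought-stressed peak, 1595 bp at 1043560 to 1045154, lay over 2 well-watered peaks of 247 and 1243 bp. The widest well-watered peak of chromosome 12, at 1766203 to 1767754, measured 1485 bp under drought and 1552 bp under full watering. These single widest peaks were of nearly the same extent in both lists, which did not hold for all peaks over 1 kb, as the largest losses given further on show.

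By the authors' score, which ranks peaks within a list, the leading peak of chromosome 11 was the same in both lists. It lay at 544884 to 545599 in the drought-stressed list with a score of 3701 and at 544750 to 545619 in the well-watered list with a score of 5612. Its rank was 114 among all drought-stressed peaks and 102 among all well-watered peaks. The leading peak of chromosome 12 was also the same in both, at 2828994 to 2829441 in the drought-stressed list (score 2522, rank 221) and at 2828984 to 2829488 in the well-watered list (score 3306, rank 254). Neither copy thus reached the 100 highest scores of a list.

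Spacing on the copies was that of short-arm ends. The median distance between neighbouring peaks was 6711 bp in the drought-stressed and 6557 bp in the well-watered list on chromosome 11, and 6492 and 6132 bp on chromosome 12. The rest of both chromosomes had 9348 bp in the drought-stressed and 8653 bp in the well-watered list, and the other 10 ends had 6420 and 6009 bp.

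The longest stretches without a peak differed between the copies. On chromosome 11 the longest drought-stressed stretch ran over 113597 bp, from 1164964 to 1278560, and held 3 well-watered peaks. The longest well-watered stretch of chromosome 11 was the one behind the first peak. On chromosome 12 the order was the other way round: the longest drought-stressed stretch was the one behind the first peak, and the longest well-watered stretch, of 84978 bp, ran from 2461346 to 2546323. That stretch measured 85041 bp under drought.

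Most peaks of both copies were found in both conditions. Without an overlap in the well-watered list were 8 drought-stressed peaks of chromosome 11 (3.09%, 1.57 to 5.98%) and 11 of chromosome 12 (4.26%, 2.40 to 7.47%), beside 4.89% over all drought-stressed peaks. Without an overlap in the drought-stressed list were 42 well-watered peaks of chromosome 11 (14.5%, 10.9 to 19.1%) and 42 of chromosome 12 (14.8%, 11.1 to 19.4%), beside 15.1% over all well-watered peaks. Peaks of the copies thus lacked a counterpart at close to the background share in both lists. The rest of both chromosomes had 5.06% and 14.6% by the same counts.

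The peaks of 1 condition were narrow and low in score. The 19 drought-stressed ones measured between 146 and 377 bp and scored between 21 and 125. The 84 well-watered ones measured between 140 and 972 bp and scored between 23 and 257. Every member above the median score of its own list had an overlap in the other list, which were 139 drought-stressed and 153 well-watered peaks on chromosome 11, and 135 drought-stressed and 151 well-watered peaks on chromosome 12. The same share over all sequences is not given here, so this is not read as a trait of the copies. Over all sequences, peaks of 1 condition also had low median scores, 45 (drought-stressed) and 55 (well-watered), against list medians of 344 and 388. Their highest scores there were 683 and 2109.

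The highest-scored of these peaks were at 128381 to 128550 on chromosome 11 (score 125) and at 221722 to 221867 on chromosome 12 (score 69) in the drought-stressed list. The well-watered ones were at 1639856 to 1640004 on chromosome 11 (149 bp, score 204) and at 298035 to 299006 on chromosome 12 (972 bp, score 257). The first 3 had a peak of the other list within 1 kb, at 766, 138 and 996 bp. The broad one on chromosome 12 stood apart, with the nearest drought-stressed peak 5518 bp away.

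Shared peaks were narrower under drought on both copies. Of the 1-to-1 pairs, in which a peak of each list overlaps the other and nothing else, 189 of 243 were narrower under drought on chromosome 11 (77.8%, 72.1 to 82.5%) and 189 of 231 on chromosome 12 (81.8%, 76.3 to 86.3%), beside 75.1% over all 23718 pairs. The median change was -53 bp (-63 to -42 bp) on chromosome 11 and -55 bp (-67 to -40 bp) on chromosome 12. Wider under drought were 51 pairs of chromosome 11 and 40 of chromosome 12, beside 24.2% over all pairs, and 3 and 2 pairs were equal.

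Both copies together had 378 of 474 pairs narrower (79.7%, 75.9 to 83.1%), against 1658 of 2286 (72.5%, 70.7 to 74.3%) in the rest of chromosomes 11 and 12. These intervals did not overlap. The first 3 Mb of the other 10 chromosomes had 1649 of 2209 (74.6%, 72.8 to 76.4%), an interval that does overlap that of the copies. Among the 12 ends the chromosome 12 copy ranked 1st and the chromosome 11 copy 3rd, and the other 10 ends lay between 70.0% and 78.2%. The difference from the rest includes a stretch of chromosome 12 between 20.4 and 20.7 Mb, in which 27 of 30 pairs were wider under drought; without it the rest had 73.4% narrower (71.5 to 75.1%).

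**Figure D5:**
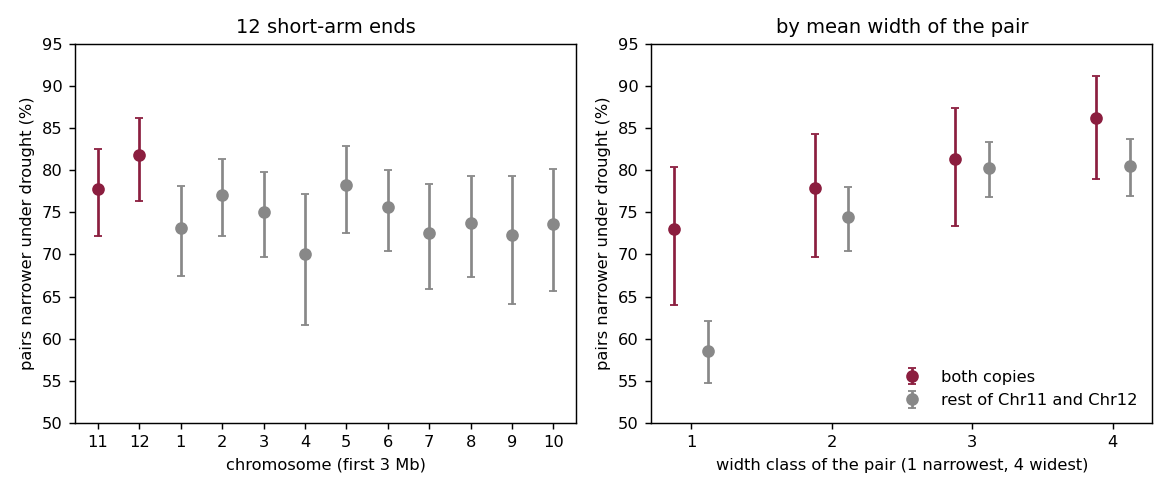
Percent of 1-to-1 pairs that were narrower under drought, with Wilson 95% intervals, for the 12 short-arm ends (left, the copies in red) and for both copies beside the rest of chromosomes 11 and 12 by 4 classes of the mean width of the pair (right). In the narrowest class the copies stand at 73.0% and the rest at 58.5%, and in the other classes the intervals overlap.

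The copies had a higher share of narrower pairs than the rest of both chromosomes in each class of peak width, with the widest gap among narrow peaks. When all pairs were divided into 4 classes of like size by their mean width, the narrowest class, under 445.5 bp, had 81 of 111 narrower on the copies (73.0%, 64.1 to 80.4%), against 399 of 682 in the rest of both chromosomes (58.5%, 54.8 to 62.1%). Over all sequences 64.2% of that class were narrower. The second class had 77.9% on the copies, against 74.4% in the rest, and the third 81.4% against 80.3%. In the widest class, above 777 bp, 106 of 123 were narrower on the copies (86.2%, 79.0 to 91.2%), against 80.5% (76.9 to 83.7%) in the rest. The intervals of the copies and of the rest overlapped in all but the narrowest class, and the classes were not tested against each other. The share thus grew with peak width on the copies, and on each copy alone: it was 72.5% in the narrowest and 82.4% in the widest class on chromosome 11, and 73.3% and 90.9% on chromosome 12.

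By Mb, the copies were close in the first and the third and differed most in the second. In the first Mb 82.2% of the pairs of chromosome 11 and 83.3% of those of chromosome 12 were narrower, in the second 73.6% and 83.7%, and in the third 76.5% and 77.0%. The intervals overlapped in each Mb, as in the second, where they were 62.4 to 82.4% on chromosome 11 and 74.5 to 90.1% on chromosome 12. Both boundaries lay further in under drought in 215 of the 474 pairs (45.4%), 101 on chromosome 11 (41.6%) and 114 on chromosome 12 (49.4%), beside 47.4% over all pairs. The position under drought minus that under full watering had a median of 20 bp at the left boundary and -21.5 bp at the right one, both inward.

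The covered length of the copies went with the whole list. Peaks covered 152 kb of the chromosome 11 copy in the drought-stressed list, against 178.2 kb in the well-watered list, a ratio of 0.853. On chromosome 12 they covered 144.9 kb in the drought-stressed list, against 172.3 kb in the well-watered list, a ratio of 0.841. The ratio over all sequences was 0.847. The number of peaks stood at 0.896 of the well-watered number on chromosome 11 and at 0.908 on chromosome 12, beside 0.905 over all sequences.

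Single pairs departed far from these medians. On chromosome 11 the largest losses were at 2339670 to 2340758, where the peak measured 390 bp under drought and 1089 bp under full watering, and at 1433440 to 1434020, with 157 bp under drought and 581 bp under full watering. On chromosome 12 they were at 2454560 to 2455638, with 628 bp under drought and 1079 bp under full watering, and at 940492 to 941488, with 555 bp under drought and 997 bp under full watering. The chromosome 11 pair with the largest loss kept its right edge within 20 bp, so nearly all of its width went on the left.

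The largest gains were smaller than the largest losses on each copy. On chromosome 11 they were at 333394 to 333680, with 576 bp under drought and 287 bp under full watering, and at 1030164 to 1030656, with 781 bp under drought and 493 bp under full watering. On chromosome 12 they were at 324645 to 325183, with 852 bp under drought and 539 bp under full watering, and at 1504940 to 1505628, with 992 bp under drought and 689 bp under full watering. The positions given for these pairs are those of the well-watered list.

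Few peaks were divided. Of the well-watered peaks, 4 on chromosome 11 (1.38%) and 7 on chromosome 12 (2.46%) lay over 2 drought-stressed peaks, beside 1.72% of all well-watered peaks that lay over 2 or more. The share on chromosome 12 was the highest of the 12 short-arm ends, and the next, at 2.46% on chromosome 7, was as high to 3 digits. The 11 divided peaks were between 727 and 1327 bp wide. Conversely, 0 peaks of chromosome 11 and 2 of chromosome 12 in the drought-stressed list lay over 2 well-watered peaks, beside 0.597% of all drought-stressed peaks that lay over 2 or more.

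The limit of 3 Mb falls between peaks of ordinary size. On chromosome 11 the last drought-stressed peak inside it ended at 2988161 and the first outside began at 3020578, and the last well-watered peak inside ended at 2988170 and the first outside began at 3019856. On chromosome 12 the last drought-stressed peak inside ended at 2994082 and the first outside began at 3013217, and in the well-watered list these positions were 2994082 and 3013163. The widths of the last 2 inside ranged between 322 and 718 bp, and those of the first 2 outside between 439 and 943 bp.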

How the data were processed

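Per the labels' protocols, leaf tissue was fixed with 1% formaldehyde, 0.2 g was used per assay and chromatin was sheared to 200 to 600 bp. BWA, SAMtools, MACS2 and deepTools are named in the submitters' processing notes, without versions. The authors deposited 1 peak list per condition, to which both libraries of that condition point. The sources used here do not give the calling threshold, any input control or how libraries were pooled. Each deposited list gives positions in bp and a score per peak. The score is the authors' own, its scale is not stated, and it was used only within a list. Positions are written 1-based, and a table of rice genes of another build was not used.

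Overlap meant at least 1 bp. Distances between peaks run from the end of one to the start of the next, and spacings run between midpoints. Density used the end of the last peak of either list as the chromosome's length. Intervals are Wilson intervals for shares and order-statistic intervals for medians. The members, the lists compared and the measures were chosen with earlier results of these data known. Regions were named by rule: the widest, the highest-scored and the highest-scored condition-only peak of each copy and list, the 2 largest losses and gains per copy, the longest stretches without a peak, and the peaks at the 3 Mb limit. The rule also asked for the runs with the most peaks, of which there were none at the planned setting, so matched peaks were taken from like intervals. The first peaks, the stretches next to the ends and the 6 peaks of the second Mb were outside this rule and picked after their values were seen. So were like intervals, 3-peak runs, flanks and the split by width. A chain search that allowed skipped peaks and a scan for the best single shift were also looked at, and did not set the copies apart from other pairs of ends. Tools were Python 3.11.15, numpy 2.4.6, pandas 2.3.3 and scipy 1.17.1. The overlap, pair and run steps were tested on simulated data, for which changes were planted in the well-watered list, and found 2000 of 2000 dropped peaks, 2717 of 2717 narrowed pairs, 12 of 12 peaks of a planted run and 11 of 11 planted like intervals. The planted run was an exact copy at a single shift. Its recovery checks the code and does not tell how well runs with changed spacings or lost peaks are found.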

Additional observations from a re-analysis of the deposited data

How the results depend on the processing

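The search for runs on both copies gave 0 with spacings within 100 bp, 0 within 50 bp, 0 with at least 5 peaks, 0 in the drought-stressed list, 1 within 200 bp and 17 with at least 3 peaks. The ratio of like intervals at like positions to those elsewhere, 1.43 in the drought-stressed and 4.47 in the well-watered list, was 2.26 with widths within 1.15 in the drought-stressed list. In the well-watered list it was 2.61 within 200 bp, 2.38 with widths within 1.15, 2.66 with widths within 1.4 and 1.34 with any width, while 50 bp gave 5.86. All ratios stayed above 1, but the size in the well-watered list depends on the limit on width, and 4 other pairs of ends had a higher ratio at 1.15 and 6 with any width. The cause was not tested. Pearson's r of peak counts was -0.028 over 50 kb and 0.375 over 250 kb bins in the drought-stressed list, and 0.015 and 0.371 in the well-watered list. Spearman's rho was -0.0074 and 0.342 in the drought-stressed list, and 0.042 and 0.574 in the well-watered list.

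With only peaks above the median score of their list, chromosome 11 held 139 drought-stressed and 153 well-watered peaks and chromosome 12 held 135 and 151. Their median widths were 668 and 738 bp on chromosome 11 and 640 and 725 bp on chromosome 12, and 100% of them were shared in all 4 sets. Narrower under drought were 79.4% of the chromosome 11 pairs, close to the 77.8% of all its pairs, and 87.5% of the chromosome 12 pairs, beside 81.8%. The shares over all sequences at this setting are not given here. A reciprocal overlap of 50% lowered the shared drought-stressed peaks to 90.3% on chromosome 11 and 89.1% on chromosome 12. With a limit of 2 Mb, no share or median of the copies moved beyond its interval, and the ratio of drought-stressed to well-watered peak numbers was 0.884 on chromosome 11 and 0.890 on chromosome 12, beside 0.896 and 0.908.

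Set against the other 10 short-arm ends, the copies exceeded by 5.47 peaks per Mb in the drought-stressed and 7.87 in the well-watered list, beside 36.9 and 41.3 against the rest of their chromosomes. The difference in median width was -2 bp in the drought-stressed list, where it was 11 bp against the rest, and 2 bp in the well-watered list, where it was 29 bp. That in well-watered peaks without overlap was 1.23 percentage points, beside 0.014, and that in median width change was -4 bp, beside -7.5 bp. The excess of narrower pairs was 5.10 points against the other ends, 7.22 against the rest and 6.39 against the rest without the stretch of wider pairs on chromosome 12.

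No paired analysis was possible because neither list holds values per library, and leaving out a library was likewise not done. The depth behind the lists is unknown, and how many low-scored peaks it decides was not tested.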
